A study of Mus musculus with 6 samples.

Results

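The genes described here are 10 genes of the ATF4-CHOP integrated stress response: *Atf4*, *Atf5*, *Atf3*, *Ddit3* (the gene of CHOP), *Cebpb*, *Nupr1*, *Trib3*, *Ppp1r15a*, *Ddit4* and *Chac1*. They were taken by symbol from a table of gene counts with 55401 Ensembl identifiers. All 10 were among the 18253 genes that passed the filter on low counts and were tested. The RNA came from wild-type mouse cells labelled as group 3 innate lymphoid cells (ILC3s) of the small-intestinal lamina propria, in 3 libraries pretreated with vehicle and 3 pretreated with PEox, which the labels do not spell out and which is commonly short for oxidised phosphatidylethanolamine. By its title, the series studies how FXR, a bile acid receptor, and ferroptosis of the epithelium bear on ILC3s in necrotizing enterocolitis of the newborn. Neither a dose, an exposure time, an age of the pups nor the number of animals behind a library was given in the sources used here. P-values therefore rest on the spread among 6 libraries that may be technical repeats.

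The protocol text names sorted cells positive for EpCAM and negative for CD45, an epithelial sort, whereas the cell type label names ILC3s. *Epcam*, the gene of that epithelial marker, lay between 28.45 and 55.61 CPM (counts-per-million values, scaled by the trimmed mean of M-values, TMM) in the 6 libraries. Libraries held 56252806 to 66849230 counts. Several marker lists moved between the groups: the summed level of 15 ILC3 markers was 13180 to 13410 CPM in vehicle and 7648 to 7698 CPM in PEox, mostly through *Il22* (6724 to 2513 CPM) and *Id2* (3004 to 1684 CPM), that of 12 B and plasma cell markers 733.9 to 740.8 and 201.8 to 206 CPM, that of 9 erythroid markers 2784 to 2827 and 5147 to 5825 CPM, and that of 15 epithelial markers 99.17 to 113.3 and 63 to 69.83 CPM. By the test described below, 6 of 15 ILC3 markers fell and 3 (*Kit*, *Tcf7* and *Tox*) rose, with a list median of -0.11, 12 of 12 B and plasma cell markers fell, 5 of 9 erythroid markers rose, and of 10 epithelial markers with enough counts 3 fell and 1 rose. Over all tested genes, 18.3% rose and 18.8% fell. Summed markers of T cells (1197 to 1214 CPM in vehicle, 879 to 947.6 CPM in PEox), ILC1 and NK cells, ILC2s, mast cells and myeloid cells were also lower in every PEox library, and those of stroma higher. The T cell sum was mostly *Trbc1* (368.8 to 283.6 CPM) and *Trbc2* (583.9 to 442.9 CPM). Of 11 T cell markers 7 fell and 1, *Cd4* (8.46 to 14.75 CPM), rose. Of 9 tested stroma markers 4 rose and 1, *Acta2* (75.67 to 20.6 CPM), fell. Lower were 9 of 10 tested markers of ILC1 and NK cells and 4 of 8 of ILC2s. So were 5 of 10 of mast cells and 7 of 17 of myeloid cells, and none of these lists held a marker called higher. *Epx* of eosinophils and *Clec9a* of dendritic cells were at 0 throughout, whereas *Xcr1*, of the same list as *Clec9a*, stood at 47.91 CPM in vehicle and 28.36 CPM in PEox. The part of these shifts in the results below was not tested. In such bulk libraries fewer cells of a type and less RNA per cell cannot be told apart.

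In the integrated stress response, kinases that sense stress phosphorylate the initiation factor eIF2. General protein synthesis slows, while mRNAs with upstream open reading frames, among them that of *Atf4*, are translated more. ATF4 then switches on genes of amino acid supply and, with prolonged stress, *Ddit3*, *Atf3*, *Trib3*, *Chac1* and *Nupr1*, and the product of *Ppp1r15a* closes the loop by directing a phosphatase to eIF2. Since the central step is translational, mRNA levels do not show the phosphorylation of eIF2 or the amount of ATF4 protein. They cover genes downstream of the pathway, some of which other signals also induce.

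ATF4 and its partners of the C/EBP family bind a composite DNA element, and CREB and ATF dimers bind the cyclic AMP response element. Promoters of all 10 genes were found in RefSeq (GRCm38.p6), and the 250 bases before each start were searched on both strands for TGATGNAA, a core of the C/EBP-ATF element, for TGACGTCA, the palindromic cyclic AMP response element, and for TGACGCAA, a relative of it. TGATGNAA occurred in the promoters of *Atf3*, *Nupr1* and *Chac1* and in 3.45% of all 32851 promoters. TGACGTCA occurred in that of *Ppp1r15a* and in 1.55% of all promoters, and TGACGCAA in that of *Chac1* and in 0.438% of all. The stretches below are printed because their genes differ in how they behaved in PEox: *Ppp1r15a* and *Trib3* rose, *Nupr1* fell, and *Atf3* and *Chac1* did not pass the test. Each is read along the gene's own strand, with matches in capitals. The matches of TGATGNAA lie on the opposite strand and are printed as their reverse complement.
Ppp1r15a: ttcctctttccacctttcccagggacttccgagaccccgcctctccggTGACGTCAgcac
Trib3: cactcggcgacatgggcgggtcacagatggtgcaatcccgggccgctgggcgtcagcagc
Nupr1: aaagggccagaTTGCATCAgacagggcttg
Atf3: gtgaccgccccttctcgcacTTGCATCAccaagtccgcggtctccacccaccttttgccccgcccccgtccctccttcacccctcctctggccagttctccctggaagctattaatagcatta
Chac1: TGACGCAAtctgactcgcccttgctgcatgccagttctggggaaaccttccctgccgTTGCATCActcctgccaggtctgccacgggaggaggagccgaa

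The stretch of *Ppp1r15a* is chr7:45526269-45526328 on the minus strand, and its match lies 12 to 5 bases before the start. That of *Trib3* is chr2:152344061-152344120 on the minus strand and holds none of the 3 motifs. The stretch of *Nupr1*, chr7:126625562-126625591 on the minus strand, lies in the leader of a longer annotated transcript. The match of *Nupr1* and that of *Atf3* (chr1:191183341-191183463, minus strand) both lie 110 to 103 bases before the RefSeq start used here. For *Nupr1*, a longer transcript starts upstream of that point. The stretch of *Chac1*, chr2:119350992-119351091 on the plus strand, carries TGACGCAA at bases 250 to 243 and the C/EBP-ATF core at bases 193 to 186 before the start. *Nupr1* and *Atf3* carried the same 8 bases at the same distance from these starts, and the level of *Nupr1* mRNA fell in PEox while that of *Atf3* was 23.08 CPM in vehicle and 29.73 CPM in PEox. A match describes these letters in this window and not the binding of a factor.

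Between the groups, the 10 genes did not move in the same direction. *Ddit4*, *Ppp1r15a* and *Trib3* rose by 1.18, 0.84 and 0.78 on the log2 scale. *Nupr1* fell by 0.95, and the transcription factors *Ddit3* and *Atf4* fell by 0.38 and 0.27. *Atf3*, *Atf5*, *Cebpb* and *Chac1* did not pass the threshold, an adjusted p of 0.05 in edgeR's quasi-likelihood test with Benjamini-Hochberg adjustment over all tested genes. Of all tested genes 37.1% passed, with 18.3% higher and 18.8% lower, so that 3 genes higher and 3 lower of 10 stand against a large background of change. The CPM values of the groups did not overlap for 8 of the 10 genes and for 50.6% of all tested genes. The median log2 fold change was 0.11 over the 10 genes and 0.00 over all tested genes.

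**Figure D1:**
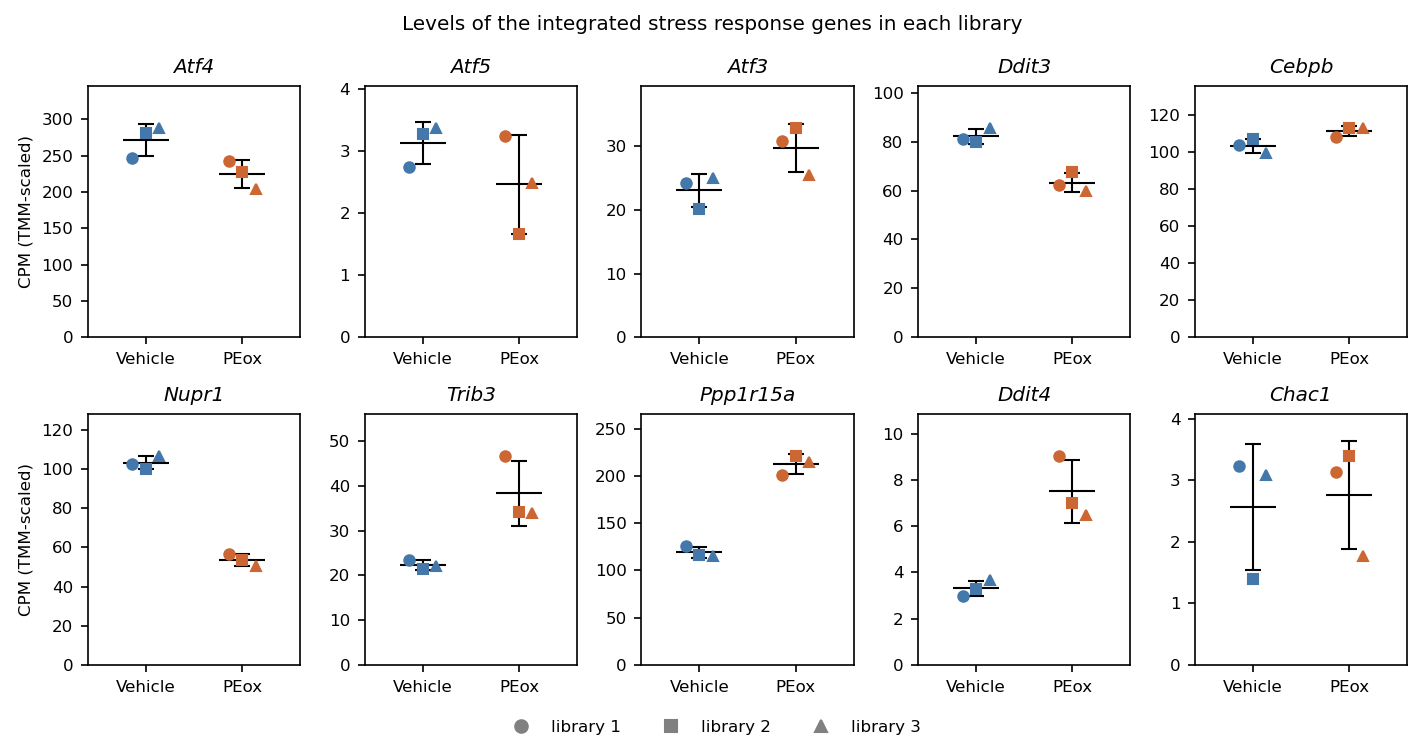
TMM-scaled CPM of the 10 genes in each library (vertical axes, each starting at 0; points are libraries, horizontal lines the group mean and bars the SD, n = 3). Vehicle and PEox libraries do not overlap for 8 genes; *Atf5* and *Chac1*, both below 4 CPM, do.

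The sensors and the substrate upstream of ATF4 are described before the genes themselves. Of 17 listed genes of eIF2 control, 5 rose, 3 fell and 9 did not pass (29.4% higher and 17.6% lower, against 18.3% and 18.8% of all tested genes), with a median log2 fold change of -0.07. Among the 4 eIF2 kinases, *Eif2ak3*, which encodes the endoplasmic reticulum kinase PERK, measured 9.24, 9.114 and 8.84 CPM in vehicle and 23.47, 13.89 and 22.88 CPM in PEox. All PEox libraries lay above all vehicle libraries, and the log2 fold change was 1.15 ± 0.21 (SE, edgeR adjusted p = 0.00296). *Eif2ak4*, the gene of the amino acid sensor GCN2, measured 10.09, 10.68 and 9.984 CPM in vehicle against 20.63, 24.95 and 11.71 CPM in PEox, with PEox library 3 close to vehicle. Its log2 fold change was 0.90 ± 0.25 (edgeR adjusted p = 0.0242), and the call was lost when any library other than PEox 3 was left out, with 0.65 (edgeR adjusted p = 0.0774) without PEox 2. *Eif2ak1*, the gene of the haem-regulated kinase HRI, rose by 0.31 (edgeR adjusted p = 0.00455), and *Eif2ak2*, the gene of the RNA-activated kinase PKR, fell by 0.51 (edgeR adjusted p = 0.0048).

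The eIF2 subunits themselves did not move together. *Eif2s1*, the subunit that carries the regulated phosphorylation site, fell from 257.1 ± 4.83 to 162.8 ± 6.23 CPM (SD, n = 3 per group), a log2 fold change of -0.66 (edgeR adjusted p = 2.9e-05). *Eif2s2* fell from 105.7 ± 3.26 to 76.54 ± 5.49 CPM, and *Eif2s3x* measured 43.83 ± 6.09 CPM in vehicle and 58.45 ± 7.40 CPM in PEox. The call of *Eif2s3x* (log2 fold change 0.42, edgeR adjusted p = 0.0389) was lost without any library other than PEox 1, at an adjusted p of 0.0652 to 0.12, and without the filter on low counts (0.066). *Impact*, which encodes an inhibitor of GCN2 activation, rose by a log2 fold change of 0.91 (edgeR adjusted p = 0.000485), or 1.37 without the length and GC trend.

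Of the transcription factors, *Atf4* leads the response, and its mRNA was modestly lower in PEox. It measured 246.2, 280.4 and 288.1 CPM in vehicle and 242.6, 228 and 204 CPM in PEox. The groups did not overlap, although vehicle library 1 lay only just above PEox library 1. The log2 fold change was -0.27 ± 0.08 (SE, edgeR adjusted p = 0.0306), a level 17.2% lower. The call was lost with scaling by library size alone (-0.14, edgeR adjusted p = 0.239), with the replicate number as a block (edgeR adjusted p = 0.0689) and without vehicle library 2 or 3 or PEox library 2 or 3. The change was 0.011 (edgeR adjusted p = 0.937) once a trend on transcript length and GC content was removed. Relative to the median of all genes, *Atf4* stood at -0.27 with TMM and with library size scaling alike, and at -0.13 without the trend.

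*Ddit3* encodes CHOP, the factor that carries the response towards cell death when stress persists. Its level was 80.97, 79.74 and 85.63 CPM in vehicle and 62.05, 67.45 and 59.83 CPM in PEox. All PEox libraries lay below all vehicle libraries, by a log2 fold change of -0.38 ± 0.07 (edgeR adjusted p = 0.00387). The change was -0.24 with scaling by library size (edgeR adjusted p = 0.028) and 0.0067 after removal of the length and GC trend (edgeR adjusted p = 0.958). Relative to the median of all genes, *Ddit3* stood at -0.38 with TMM and with library size scaling alike, and at -0.14 without the trend. *Ddit3* counts per *Atf4* count, a ratio that no library scaling touches, were 0.329, 0.284 and 0.297 in vehicle and 0.256, 0.296 and 0.293 in PEox, so these mRNAs kept overlapping ratios. A further identifier of *Ddit3* held 0 or 1 count per library and was not used. On the opposite strand *Ddit3* shares 68 exon bases with *Mars*, which had 7225 to 10872 counts per library.

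*Atf3*, a repressive relative that ATF4 and other stress signals induce, measured 24.23, 20.08 and 24.95 CPM in vehicle and 30.81, 32.89 and 25.48 CPM in PEox. PEox library 3 lay just above the highest vehicle library. The log2 fold change was 0.36 ± 0.14 and missed the threshold (edgeR adjusted p = 0.0704). It passed with library size scaling (0.50, edgeR adjusted p = 0.0192) and after removal of the length and GC trend (0.49, edgeR adjusted p = 0.0236), with a filter at 5 CPM and with DESeq2, and without PEox library 3. Relative to the median of all genes, *Atf3* stood at 0.36 with TMM and with library size scaling alike, and at 0.35 without the trend.

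*Cebpb*, a dimer partner of ATF4 and CHOP, measured 103.3, 106.8 and 99.26 CPM in vehicle and 107.8, 112.8 and 112.5 CPM in PEox. The groups lay barely apart, and the log2 fold change of 0.11 ± 0.06 did not pass (edgeR adjusted p = 0.194), whereas it passed with library size scaling (0.24, edgeR adjusted p = 0.00991) and after removal of that trend (0.37, edgeR adjusted p = 0.00188). Relative to the median of all genes, *Cebpb* stood at 0.11 with TMM and with library size scaling alike, and at 0.22 without the trend. *Cebpb* shares 312 exon bases with *Tmem189* on the opposite strand, which had 10086 to 12601 counts per library. *Atf5*, which like *Atf4* is translated more under stress, had 2.739, 3.279 and 3.371 CPM in vehicle and 3.246, 1.658 and 2.478 CPM in PEox. With 98 to 212 counts per library, these values overlapped and the test did not pass (log2 fold change -0.35 ± 0.31, edgeR adjusted p = 0.45). *Atf5* shares 82 exon bases with *Nup62* on the opposite strand, which fell by 0.76 (edgeR adjusted p = 0.00528), and whether counting used strand was not given in the sources used here.

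*Nupr1* encodes a small chromatin-associated stress protein and had the lowest p-value among the genes that fell. It measured 102.5, 100.3 and 106.9 CPM in vehicle and 56.48, 53.8 and 50.38 CPM in PEox. All 3 PEox libraries lay far below all vehicle libraries, and the log2 fold change was -0.95 ± 0.07 (edgeR adjusted p = 2.7e-05), a level 48.1% lower. With the length and GC trend removed the change was -0.59 and the call was kept (edgeR adjusted p = 0.000241).

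Among the effectors, *Ppp1r15a* (GADD34) encodes the inducible subunit that brings protein phosphatase 1 to eIF2 and so ends the translational block. Its level was 125.3, 116.7 and 115.2 CPM in vehicle and 200.9, 221.4 and 215.1 CPM in PEox. The groups were well apart, at 1.78-fold (log2 fold change 0.84 ± 0.06, edgeR adjusted p = 2.43e-05). The constitutive counterpart *Ppp1r15b* measured 31.12, 35.51 and 31.67 CPM in vehicle and 33.79, 37.07 and 51.91 CPM in PEox; these groups overlapped, and the change of 0.32 ± 0.16 did not pass (edgeR adjusted p = 0.167) and was 0.12 without PEox library 3.

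*Trib3* encodes a pseudokinase that binds ATF4, CHOP and the kinase AKT. It measured 23.47, 21.4 and 22.19 CPM in vehicle and 46.76, 34.27 and 34.04 CPM in PEox. The PEox libraries were all higher, library 1 most of all, and the log2 fold change was 0.78 ± 0.14 (edgeR adjusted p = 0.00298), or 0.61 without that library. *Ddit4* (REDD1), which restrains the growth kinase complex mTORC1, rose from 2.991, 3.297 and 3.657 CPM to 9.059, 7.021 and 6.477 CPM. No PEox library came near the vehicle range, at 2.27-fold (log2 fold change 1.18 ± 0.22, edgeR adjusted p = 0.00321), from 187 to 533 counts per library.

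*Chac1* encodes an enzyme that degrades glutathione, the substrate of the enzyme that protects membranes from ferroptosis. Its level was 3.227, 1.393 and 3.084 CPM in vehicle and 3.127, 3.4 and 1.768 CPM in PEox. Each group held a library far below its other 2, the groups overlapped, and no difference was detectable at this depth of 79 to 205 counts per library (log2 fold change 0.11 ± 0.41, edgeR adjusted p = 0.874). The sign turned without vehicle library 2 (-0.19) or PEox library 2 (-0.08).

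**Figure D2:**
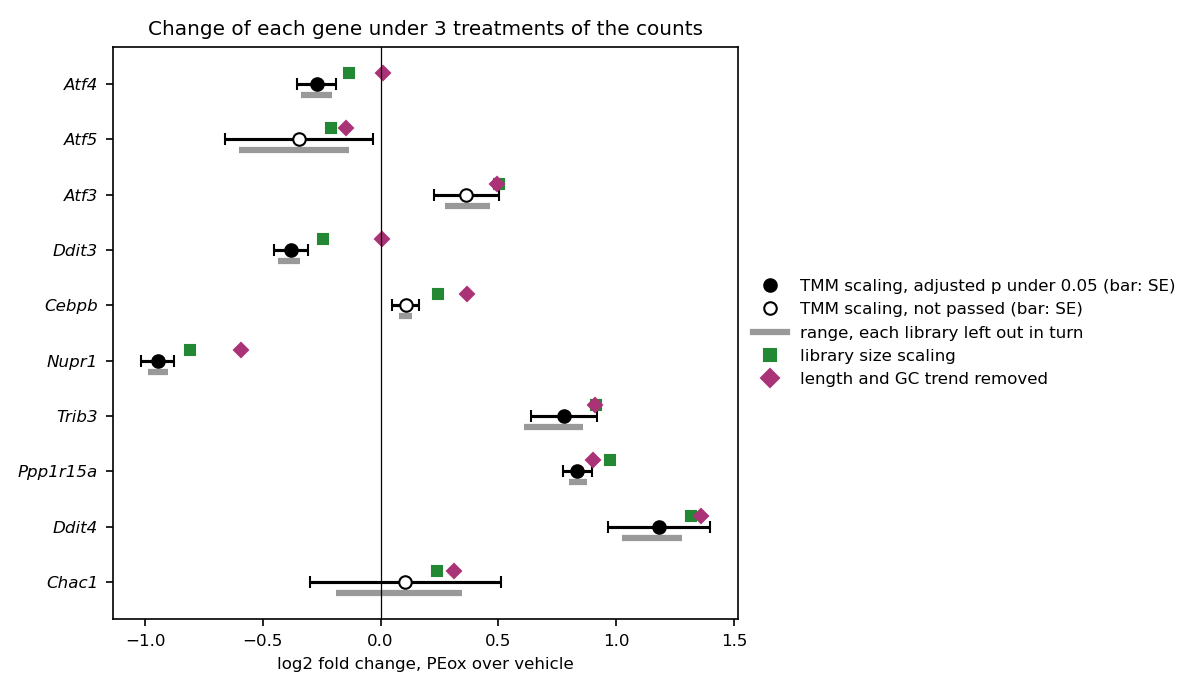
Log2 fold change of PEox over vehicle for each of the 10 genes (circles with SE; filled circles passed at an adjusted p under 0.05), the range with each library left out in turn (grey bars), and the values with library size scaling (squares) or without the length and GC trend (diamonds). *Nupr1* stays below 0 and *Trib3*, *Ppp1r15a* and *Ddit4* above 0 throughout, whereas the diamonds of *Atf4* and *Ddit3* lie next to 0. Squares and diamonds are not set against the median of all genes, which was 0.14 in both settings.

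*Nupr1*, *Trib3*, *Ppp1r15a* and *Ddit4* kept their direction and call in 14 of 14 alternative settings. Ratios of counts within a library involve no scaling. The pairs below were chosen after their values were seen and set a gene that rose over a gene that fell, so their direction follows from the choice and the ratios are a description. There were 1.22, 1.16 and 1.08 *Ppp1r15a* counts per *Nupr1* count in vehicle and 3.56, 4.12 and 4.27 in PEox. *Trib3* counts per *Ddit3* count were 0.29, 0.268 and 0.259 in vehicle and 0.753, 0.508 and 0.569 in PEox. *Ppp1r15a* counts per *Atf4* count rose from 0.509, 0.416 and 0.4 to 0.828, 0.971 and 1.05.

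Levels of different genes were compared per kilobase of their median annotated transcript. In vehicle, *Atf4* was highest at 227.8 ± 18.7 CPM per kb (SD, n = 3), followed by *Nupr1* (124.5 ± 4.04), *Ddit3* (110.2 ± 4.17), *Cebpb* (68.56 ± 2.51) and *Ppp1r15a* (51.03 ± 2.32). *Atf3* (11.87 ± 1.35) and *Trib3* (11.03 ± 0.515) overlapped, as did *Ddit4*, *Atf5* and *Chac1* between 1.57 and 1.89 CPM per kb. In PEox the order changed below *Atf4* (188.7 ± 16.3 CPM per kb). *Ppp1r15a* reached 91.07 and overlapped with *Ddit3* at 84.71, *Cebpb* followed at 73.82, and *Nupr1* lay below it at 64.6. *Trib3* (18.93) and *Atf3* (15.28) still overlapped, and *Ddit4* (4.284) lay above *Chac1* (1.689) and *Atf5* (1.418). The place of a gene in this order depends on the transcript length taken. With the longest annotated transcript, *Nupr1* (42.14 CPM per kb) lay below *Cebpb* (68.56) in vehicle already and overlapped with *Ppp1r15a* (42.38), and in PEox *Ppp1r15a* (75.64) overlapped with *Cebpb* (73.82), above *Ddit3* (65.13) and *Nupr1* (21.87).

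Change in these libraries went with transcript length, and the lengths of the 10 genes matter for how their changes are read. Over all tested genes with a known transcript length, the median log2 fold change was -0.32 in the fifth with the shortest transcripts (up to 823 bases), where 8.14% of genes rose and 27.7% fell, and 0.28 in the fifth with the longest (from 3410 bases), where 30.3% rose and 8.23% fell. The 3 genes that fell have median transcripts of 745 bases (*Ddit3*), 829 bases (*Nupr1*) and 1192 bases (*Atf4*). Those that rose have 1755 bases (*Ddit4*), 2026 bases (*Trib3*) and 2333 bases (*Ppp1r15a*). *Ddit3* and *Atf4* lay close to the medians of genes of like length, while *Nupr1*, *Ddit4*, *Trib3* and *Ppp1r15a* lay well away from theirs. With the trend on length and GC content removed, 5 of the 10 genes were higher and 1 was lower; the median of all genes was then 0.14, and relative to it *Ddit3* stood at -0.14, *Atf4* at -0.13 and *Nupr1* at -0.74. RNA quality was not given in the sources used here, and its part in this trend was not tested.

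**Figure D3:**
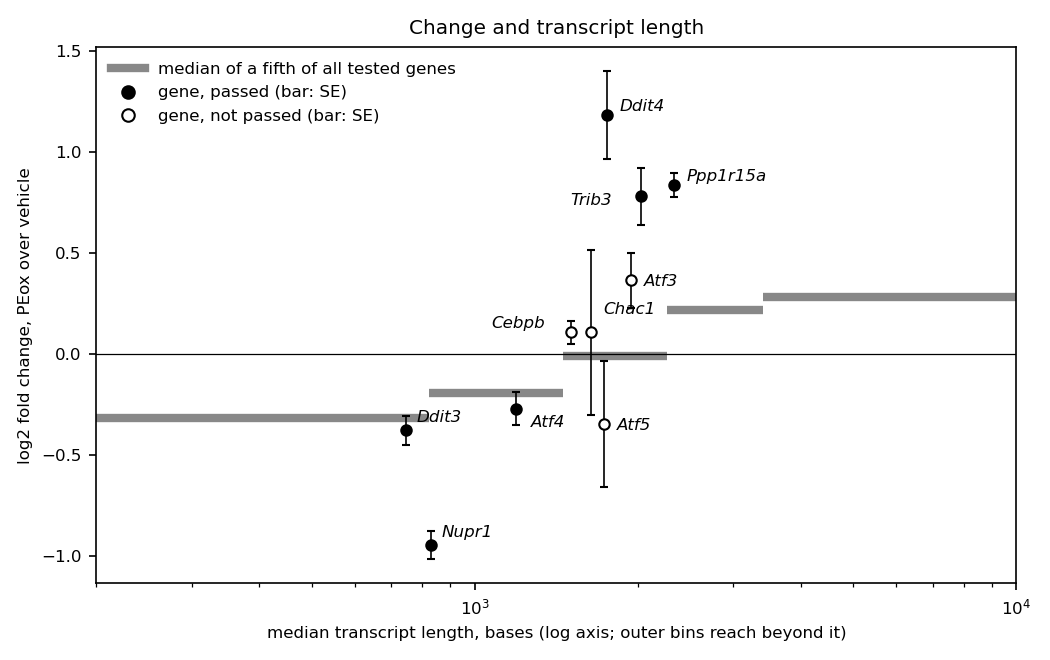
Log2 fold change of PEox over vehicle against median transcript length (log axis, bases) for the 10 genes (points with SE; filled points passed the test), with the medians of 5 equal length bins of all tested genes as grey lines. The grey lines climb from -0.32 to 0.28; *Ddit3* and *Atf4* lie near them and *Nupr1*, *Ddit4*, *Trib3* and *Ppp1r15a* do not.

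Downstream, 62 further target genes of ATF4 and CHOP were listed, and 61 were tested. Of these 25 rose, 10 fell and 26 did not pass, which is 41.0% higher and 16.4% lower against the 18.3% and 18.8% of all tested genes, with a median log2 fold change of 0.24. The median was 0.14 without vehicle library 3, and 6 targets were lower with the length and GC trend removed. Counts and medians are given for 3 groups of targets, whose difference was not tested. Of 24 genes of amino acid synthesis and transport, 7 rose and 7 fell (median -0.14), and of 14 genes of tRNA charging and export, 6 rose and 1 fell (median 0.11). Among 23 tested targets with other functions, 12 rose and 2 fell (median 0.59).

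Within the amino acid group, *Slc7a1* was the only transporter called lower, and the others rose or did not pass. The named enzymes of serine and glycine synthesis fell. The transporters *Slc1a4* (0.8593 ± 0.507 to 5.455 ± 1.32 CPM, log2 fold change 2.66, edgeR adjusted p = 0.00227) and *Slc7a11* (4.567 ± 1.2 to 11.02 ± 4.32 CPM, 1.27, edgeR adjusted p = 0.0182) rose from low levels. Both were named after their values were seen, and neither was compared under the alternative settings. For *Slc7a11*, PEox library 2 (6.225 CPM) lay just above vehicle library 3 (5.946 CPM). *Slc38a2*, a neutral amino acid transporter, rose from 90 ± 2.15 to 225.6 ± 12.5 CPM (log2 fold change 1.33, edgeR adjusted p = 2.63e-06). *Slc3a2*, the shared heavy chain of several amino acid transporters, rose from 323.4 ± 15 to 598.8 ± 21.2 CPM (log2 fold change 0.89, edgeR adjusted p = 7.74e-06), and the glutamine transporter *Slc1a5* stood at 266.5 ± 32.8 and 294.1 ± 24.2 CPM (edgeR adjusted p = 0.303, or 0.0489 with library size scaling). The glycine transporter *Slc6a9* rose from 1.391 ± 0.357 to 8.425 ± 2.43 CPM; it is also expressed in erythroid cells, whose summed markers were higher in PEox, and the part of those cells was not tested. *Psat1* fell by 1.08 and *Shmt2* by 0.84 on the log2 scale, and the arginine and lysine transporter *Slc7a1* fell by 0.64 (0.37 with the length and GC trend removed). Chosen after their values were seen, *Phgdh*, the entry enzyme of serine synthesis, fell by 0.82 (0.53 with that trend removed), the alanine transaminase *Gpt2* rose by 1.22, and *Asns*, the asparagine synthetase and a classical ATF4 target, stood at 56.56 ± 5.82 CPM in vehicle and 58.15 ± 5.91 CPM in PEox. The change of *Asns* was 0.04 ± 0.11 (edgeR adjusted p = 0.818). It passed with the length and GC trend removed (0.37, edgeR adjusted p = 0.0296), where the median of all genes was 0.14. Its sign turned without vehicle 2 (-0.026) or PEox 2 (-0.02).

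Of the genes that charge tRNA, *Lars*, *Iars*, *Aars* and *Nars* rose by 0.52, 0.50, 0.32 and 0.30 on the log2 scale, and *Wars*, which interferon also induces, fell by 0.36 (0.22 with library size scaling). The call of *Aars* (edgeR adjusted p = 0.015) was lost without vehicle library 1 or 2 (0.0693 and 0.055). The tRNA exporter *Xpot* rose by 1.06 (edgeR adjusted p = 0.00102). In the remaining group, the autophagy receptor *Sqstm1* rose from 1232 ± 19.4 to 2348 ± 14.9 CPM (log2 fold change 0.93, edgeR adjusted p = 8.88e-07). *Jdp2*, *Klhl24*, *Ndrg1* and *Nfe2l1* rose by 1.06, 0.97, 0.96 and 0.74, with 1.44 for *Ndrg1* once the length and GC trend was removed. *Map1lc3b*, an autophagosome protein, fell by 0.15 (edgeR adjusted p = 0.0107), which library size scaling brought to -0.018 and removal of the trend to 0.03. *Ero1l*, an oxidase of the endoplasmic reticulum that CHOP induces, rose by 0.43, and the stress cytokine *Gdf15*, chosen after its values were seen, rose by 0.81 from 4.376 CPM.

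**Figure D4:**
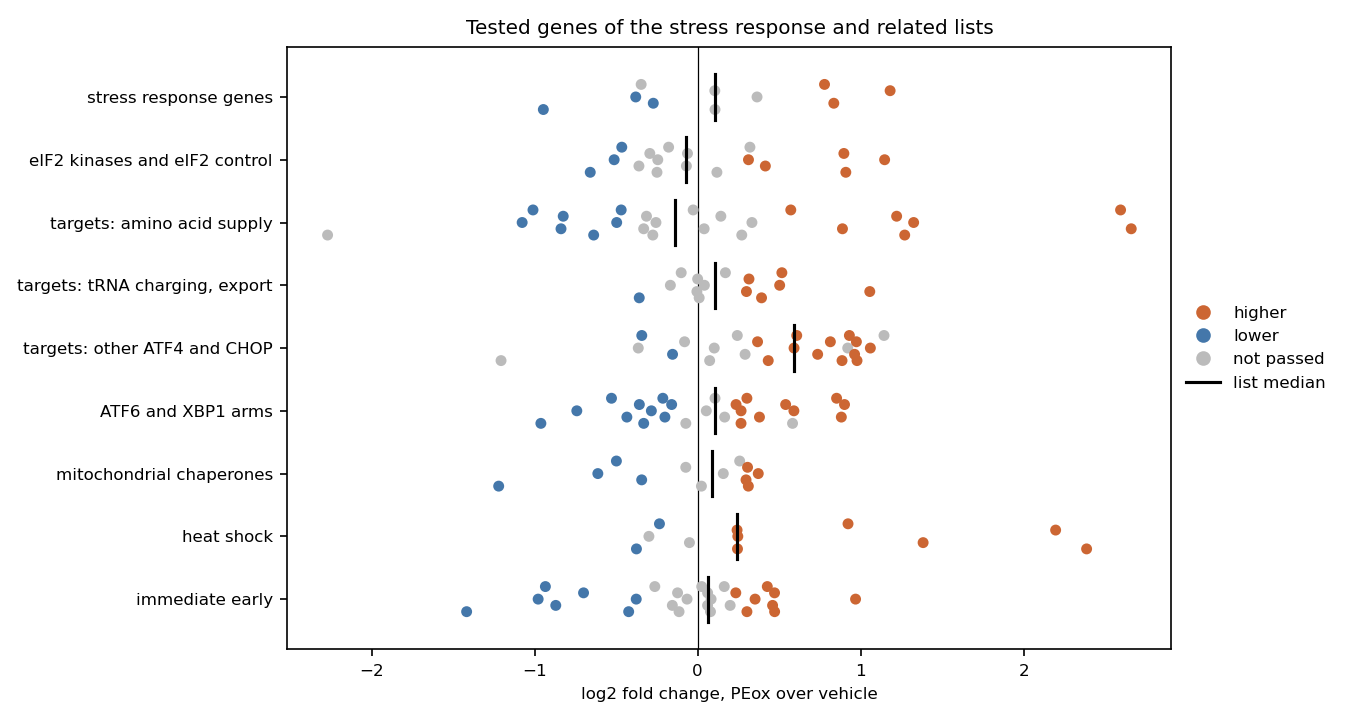
Log2 fold change of PEox over vehicle for each tested gene of the 10 stress response genes and of 8 related lists (rows). Each point is a gene, coloured by its call (higher, lower or not passed), and black lines are list medians; the list of other ATF4 and CHOP targets has its median at 0.59, the amino acid list at -0.14.

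Of 25 genes of the neighbouring ATF6 and XBP1 arms of the unfolded protein response, 10 rose and 10 fell, 40.0% in either direction against 18.3% and 18.8% of all tested genes (median 0.11). The chaperones *Hsp90b1* and *Dnajb9* rose by 0.30 and 0.85, and *Hspa5* (BiP) by 0.27 (edgeR adjusted p = 0.0163, or 0.40 with library size scaling), whose call was lost after removal of the length and GC trend (0.20, edgeR adjusted p = 0.0779) and without vehicle library 2 (0.0617) or PEox library 1 (0.0567). *Pdia3*, the most abundant gene of the list, fell from 1606 ± 70.4 to 1277 ± 98.2 CPM (log2 fold change -0.33, or -0.19 with library size scaling), *Pdia6* by 0.36 (0.22 with that scaling), and *Calr*, *Manf* and *Sec61b* by 0.53, 0.74 and 0.96, and after removal of the length and GC trend *Manf* stood at -0.25 and *Sec61b* at -0.37. Plasma cells are rich in such genes. The summed markers of B and plasma cells together were lower in PEox, and the part of plasma cells was not tested.

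Of 12 mitochondrial chaperones and proteases, 4 rose and 4 fell, 33.3% in either direction against 18.3% and 18.8% of all tested genes (median 0.09). *Hspe1* fell by 1.22, *Clpp* by 0.61 and *Htra2* by 0.50 (0.29 for *Clpp* and 0.23 for *Htra2* without the length and GC trend), while *Afg3l2* rose by 0.30. *Dnaja3* rose by 0.37 (edgeR adjusted p = 0.0265) and *Trap1* fell by 0.34 (edgeR adjusted p = 0.0235), calls that were lost without any of 4 libraries each (vehicle 2 and 3 and PEox 1 and 3 for *Dnaja3*, vehicle 1 and 2 and PEox 1 and 3 for *Trap1*), and for *Trap1* also with library size scaling (0.126) and without the trend (0.0564). The chaperones *Hspd1* (179.5 ± 12.4 and 170.7 ± 12.1 CPM) and *Hspa9* (172.6 ± 6 and 175.4 ± 9.60 CPM) did not pass; without the trend *Hspd1* passed as higher (0.27, edgeR adjusted p = 0.0242). Of 11 heat shock genes, 7 rose and 2 fell, 63.6% and 18.2% against those shares (median 0.24). *Hspa1a* rose from 48.5 ± 3.04 to 222.4 ± 3.38 CPM (log2 fold change 2.20, edgeR adjusted p = 5.02e-07) and its near-identical copy *Hspa1b* by 2.39, so the split of reads between them is uncertain. The co-chaperones *Hsph1*, *Bag3* and *Dnajb1* rose by 1.38, 0.92 and 0.24. The most abundant chaperones of the list did not rise. *Hspa8* fell from 2561 ± 232 to 2177 ± 45.9 CPM (edgeR adjusted p = 0.0187), and *Hsp90aa1* fell by 0.38 (edgeR adjusted p = 0.000727). *Hsp90ab1* stood at 1974 ± 62.1 and 1907 ± 72.3 CPM (log2 fold change -0.05, edgeR adjusted p = 0.401). The call of *Hspa8* was lost with library size scaling (-0.098), without the length and GC trend (-0.12) and without vehicle library 1 or 2 or PEox library 1 or 3 (edgeR adjusted p = 0.0533 to 0.0764). Without that trend *Hsp90aa1* stood at 0.02 and *Hsp90ab1* passed as higher (0.41, edgeR adjusted p = 9.46e-05). In that setting the median of all genes was 0.14, for *Hspd1* as well.

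Lists that share signals with the 10 genes were set beside them. Of 27 immediate early genes, which tissue dissociation and sorting also raise, 8 rose and 7 fell (median 0.06). These are 29.6% and 25.9%, against 18.3% and 18.8% of all tested genes. Their members moved apart: *Gadd45a*, *Btg2* and *Junb* rose by 0.97, 0.47 and 0.30 (0.49 for *Junb* without the length and GC trend), and *Gadd45b*, *Nfkbia* and *Gadd45g* fell by 1.42, 0.98 and 0.70 (0.37 for *Gadd45g* with the length and GC trend removed). Of 11 glucocorticoid receptor targets, a class to which *Ddit4* also belongs, 4 rose and 3 fell, 36.4% and 27.3% against those shares (median 0.13). *Fkbp5*, *Tsc22d3* and *Sgk1* rose by 0.88, 0.58 and 0.45, and *Nfkbia*, *Cebpd* and *Dusp1*, which this list also holds, fell by 0.98, 0.44 and 0.38. The call of *Sgk1* (edgeR adjusted p = 0.0207) was lost without vehicle library 2 or 3 or PEox library 2 (0.0604 to 0.0838), and that of *Dusp1* (edgeR adjusted p = 0.00958) with library size scaling (0.0632), without the length and GC trend (0.0771) and without vehicle library 2 (0.0505).

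Around *Ddit4*, 8 of 17 regulators of mTORC1 rose and the others did not pass (median 0.28), against 18.3% higher among all tested genes. *Tsc2*, a subunit of the complex through which DDIT4 restrains mTORC1, rose from 33.39 ± 2.20 to 60.42 ± 7.38 CPM (log2 fold change 0.86, edgeR adjusted p = 0.000478). *Flcn*, a lysosomal regulator of nutrient signalling, rose by 0.94, and *Sesn1*, a sestrin that restrains mTORC1, by 0.51. *Rragc*, a GTPase of the same pathway, rose by 0.55 and *Castor2* by 0.64, a call lost without vehicle library 1 (edgeR adjusted p = 0.0515), while *Rheb*, the activator of mTORC1, stood at 131.5 ± 3.82 and 128.8 ± 1.46 CPM. The list also held *Sestd1*, which rose by 1.30 but is not known as an mTORC1 regulator; with it the count is 9 of 18 and the median 0.39.

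Among 23 family relatives of the 10 genes, 5 rose and 5 fell (median 0.07). That is 21.7% in either direction, near the 18.3% and 18.8% of all tested genes. The TRIB3 relatives *Trib1* (0.30 ± 0.18, edgeR adjusted p = 0.234) and *Trib2* (-0.11 ± 0.19, edgeR adjusted p = 0.708) did not pass, *Trib1* passed without PEox library 2 (0.45, edgeR adjusted p = 0.0439), and the value of *Trib2* ranged from -0.25 to 0.042 with each library left out. *Chac2*, which degrades glutathione more slowly than CHAC1, stood at 6.173 ± 0.346 and 6.281 ± 0.59 CPM. *Cebpd* fell by 0.44 (edgeR adjusted p = 0.0245), a call lost with library size scaling (-0.30, edgeR adjusted p = 0.0928) and without vehicle library 1 or 3 or PEox library 1 or 3 (0.0636 to 0.0986). In the ATF and CREB families *Creb3l2*, *Atf2* and *Crem* rose by 0.92, 0.68 and 0.49 (0.74 for *Crem* without the length and GC trend), and the lymphocyte factors *Batf* and *Batf3* fell by 0.57 and 0.66 (0.25 and 0.26 without the length and GC trend).

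The genes whose log2 CPM followed *Atf4* most closely over the 6 libraries, out of 9866 compared, were *Pinx1* (Pearson r = 0.99), *Pex11g* (0.988) and *Arf1* (0.984). *Pinx1* lay at 14.3 ± 2.71 CPM in vehicle and 8.303 ± 2.33 CPM in PEox, and *Pex11g* at 17.59 ± 1.5 and 12.79 ± 1.82 CPM. For *Ddit3* they were *Rnf157* (0.999), *Ggt5* (0.998) and *Impg1* (0.997). These values describe 6 libraries that share the group difference: 52 genes had an r over 0.95 with *Atf4* and 1024 with *Ddit3*.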

How the data were processed

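The deposited table holds raw gene counts, per the file headers and values. Per the labels' protocols and the submitters' processing notes, paired reads of 150 bp were cleaned with fastp and aligned with HISAT2 2.0.5, and edgeR 3.22.5 was named; the counter, build, annotation and strand setting are not given in the sources used here. Columns were matched to samples by title, with 0 left unused. Identifiers were named from a reference table (55141 named; 260 unnamed, holding up to 0.0191% of counts).

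In R 4.3.3, edgeR 4.0.16 kept 18253 genes (filterByExpr), scaled libraries by TMM (0.951 to 1.05) and ran its robust quasi-likelihood test on the group alone with Benjamini-Hochberg adjustment at 0.05. SE is the log2 fold change over the root of F. Counts of library pairs differed by more than counting noise (chi-square per gene 16.5 to 38.2 within groups), so no library was a copy of another; this does not show separate animals. Each was counted as 1 replicate. Transcript lengths came from GENCODE M21 (99.87% of tested genes). The procedure was also run on simulated counts with a fixed spread, few changed genes and no length trend. Error rates in these data were therefore not measured.

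The 10 genes and all lists were chosen with earlier results of these data known. Named were the 10 genes, genes of eIF2 control and family relatives, from other lists up to 6 genes with the smallest p and 2 with the highest CPM, and the 3 genes most like *Atf4* and *Ddit3* of at least 5 CPM. *Nup62*, *Asns*, *Phgdh*, *Gpt2*, *Slc1a4*, *Slc7a11* and *Gdf15* fall outside this rule. Cell type marker lists, chosen for background, are given by sums and counts, with a few genes named, chosen after their values were seen. Alternatives were other scalings and filters, DESeq2 1.42.0, limma-voom 3.58.1, a replicate block, each library left out, and removal of a loess trend (span 0.5) on transcript length and GC.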

Additional observations from a re-analysis of the deposited data

How the results depend on the processing

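*Nupr1*, *Trib3*, *Ppp1r15a* and *Ddit4* kept direction and call in all 14 settings, and *Atf5* kept its side of the threshold in 13; with the filter at 5 CPM *Atf5* and *Chac1* had no value. Scaling by library size alone shifted the median of all genes to 0.14 and gave 4411 higher and 2715 lower genes (61.9% of calls higher, against 49.3% from 3337 and 3438); removal of the length and GC trend gave 4078 and 2490 (62.1%), with the same shift. With library size scaling *Atf4* was -0.14 (edgeR adjusted p = 0.239), *Atf3* 0.50 (0.0192) and *Cebpb* 0.24 (0.00991), and 5 of the 10 genes were higher. Relative to the shifted median, *Atf4*, *Atf3* and *Cebpb* stood where they did with TMM scaling, at -0.27, 0.36 and 0.11. With the trend removed, *Atf4* (0.011) and *Ddit3* (0.0067) turned sign without passing, *Atf3* (0.49) and *Cebpb* (0.37) passed, 5 of the 10 genes were higher and 1 lower, and 6 targets were lower, against 10. Relative to the shifted median of that setting, *Atf4* stood at -0.13 and *Ddit3* at -0.14. *Atf3* also passed with the 5 CPM filter (0.35, edgeR adjusted p = 0.0438) and with DESeq2 (0.37, adjusted p = 0.0397). The cause of these shifts was not tested.

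With each library left out, log2 fold changes ranged from -0.34 to -0.20 for *Atf4*, -0.60 to -0.13 for *Atf5*, 0.27 to 0.47 for *Atf3*, -0.44 to -0.34 for *Ddit3*, 0.08 to 0.13 for *Cebpb*, -0.99 to -0.90 for *Nupr1*, 0.61 to 0.86 for *Trib3*, 0.80 to 0.87 for *Ppp1r15a*, 1.02 to 1.28 for *Ddit4* and -0.19 to 0.35 for *Chac1*, which turned sign without vehicle 2 (-0.19) and PEox 2 (-0.08). The edgeR adjusted p of *Atf4* was then 0.115 and 0.106 without vehicle 2 and 3 and 0.0605 and 0.0738 without PEox 2 and 3, and that of *Atf3* was 0.029 without PEox 3. Of the 10 genes 3 to 4 were higher and 2 to 3 lower, of the targets 21 to 25 and 9 to 11, and of all genes 2530 to 3113 and 2738 to 3480; the target median was 0.14 without vehicle 3. With the longest transcript in place of the median, vehicle levels were 134.5 (*Atf4*), 84.74 (*Ddit3*), 42.14 (*Nupr1*) and 42.38 (*Ppp1r15a*) CPM per kb. Of 90 other named genes, without *Slc1a4* and *Slc7a11*, 1260 comparisons were made with the reported value. In these, 1170 kept direction and call, 68 lost the call, 3 gained it and 19 turned sign. Library size scaling moves every gene by about the shift of the median, so a sign turned near 0 under it is that shift. Removal of the trend also moved the median of all genes to 0.14, so its values are not centred on 0. Signs turned for *Asns* (-0.026 without vehicle 2, -0.02 without PEox 2, up to 0.12 without vehicle 1), *Trib2* (0.028 with library size scaling, 0.18 with the trend removed, 0.042 without PEox 1, down to -0.25 without PEox 3), *Chac2* (-0.0065 without vehicle 1, -0.053 without PEox 3, up to 0.071 without vehicle 2), *Arf1* (0.038 with library size scaling and 0.039 with the trend removed), and likewise *Hspd1* (0.064 and 0.27), *Hsp90ab1* (0.086 and 0.41) and *Rheb* (0.11 and 0.10), and with the trend removed *Map1lc3b* (0.0299), *Hsp90aa1* (0.0197) and *Hspa9* (-0.0399, and -0.014 without PEox 1, up to 0.06 without PEox 2).

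The replicate numbers do not pair the libraries by any label, and deviations of libraries with the same number correlated at 0.049, 0.096 and 0.096 over 10599 genes, with not every library correlating best with its own number. With the replicate number as a block, *Atf4* was -0.27 (edgeR adjusted p = 0.0689), the other 9 genes kept their call, *Cebpd* (0.057), *Dnaja3* (0.0604), *Sgk1* (0.0534), *Pinx1* (0.0749) and *Pex11g* (0.0853) lost theirs, and 3018 genes were higher and 3141 lower.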
